A study of Mus musculus with 26 samples.

Results

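Of the 21857 genomic regions that were listed with the same start and end for both orientations of sequential ChIP (reChIP) in E14 mouse embryonic stem cells, 1433 (6.56%) were at least 10000 bp wide, counted from start to end. These 1433 wide regions were chosen by width alone and held 22596750 of the 96114600 bp in all shared regions (23.5%). The E14 tables list 24540 regions for K4-K27 and 36235 for K27-K4, and the remaining 20424 shared regions were under 10 kb. How the regions were called and joined was not given in the sources used here, and their widths depend on it. Because a region is as wide as the E14 reChIP signal that was called, the E14 reChIP levels given here are a description of these regions. The wide regions had a median width of 13500 bp (quartiles 11250 and 17550 bp) and ran from 10050 to 128100 bp. The narrowest members measured 10050 bp. They include those at Pcsk1n and Eras, at Dbndd1 and Gas8, at Csf1, at Lbx2 and on chromosome 9 away from a start site. The widest regions outside measured 9900 bp and include those at Slco5a1, Dusp28 with Rnpepl1 and Stum. As start and end extend beyond the interval in the region's own name for 855 members (59.7%), 879 would remain at 10 kb by the named interval.

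Formaldehyde-fixed, MNase-digested chromatin was enriched for H3K4me3 and then H3K27me3 (K4-K27) or in the opposite order (K27-K4), and 10% of the eluate of the first ChIP served as the in-line total of that mark. E14 is an established wild-type line grown in serum with LIF (replicates 1 and 2). The other cells were wild-type clones 57 and 58 (WT) and clones 43 and 53 lacking both Dppa2 and Dppa4 (DKO), so that each library of a genotype comes from another single clone. An IgG–IgG reChIP was available from E14 replicate 1 and WT clone 57. Values are log2 RPM per kb, that is reads per kb of region scaled to the mapped reads of the library, without IgG–IgG subtraction.

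H3K4me3 is laid down at promoters of active or poised genes, and H3K27me3 is deposited by Polycomb repressive complex 2. Chromatin that carries both is called bivalent, and in embryonic stem cells it is known from CpG-rich promoters of developmental genes that are kept silent but ready for use. Polycomb domains can spread far beyond a promoter, as at the Hox clusters, and broad H3K4me3 domains also occur at strongly expressed genes. DPPA2 and DPPA4 are small DNA-binding proteins of early embryos and germ cells that are known to help maintain a subset of bivalent promoters.

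Libraries rested on 6741244 to 47903462 reads. No wide region was at 0 in any library, and the lowest number of reads in a wide region was 19. Replicates differed in level: over the wide regions the median of E14 K27-K4 replicate 1 lay 1.33 below replicate 2, and WT clone 57 lay above clone 58 by 0.82 in total H3K4me3, 0.53 in total H3K27me3, 0.32 in K4-K27 and 0.60 in K27-K4. E14 replicates 1 and 2 and the clones were sequenced in 3 batches, so E14 and the clones cannot be told apart from batch and are set side by side without a test. The start of Dppa2 lay in an H3K4me3 region at 1.94 and 0.88 in WT clones and 2.14 and 1.33 in DKO clones, which says nothing about the deletion. Of the 8 pluripotency markers 8 had an E14 H3K4me3 region and 1 an H3K27me3 region at the start site, and of the 4 fibroblast markers 4 and 2. In the clones, the 23 wide regions between 40 and 90 Mb of chromosome 14 had medians 0.76 to 1.19 below those of all wide regions in every library, IgG–IgG included, against differences of -0.25 to 0.11 in E14.

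The sequences just upstream of the start site of 7 genes in wide regions are shown as picked examples of regions described here. They set no order of CG content between groups of regions. Each is the 250 bases before a RefSeq transcript start on GRCm38.p6 (the assembly called mm10), written 5′ to 3′ on the strand of the gene, with the dinucleotide CG in capitals. Pou3f2 (chr4:22488367-22488616, minus strand) and Atoh1 (chr6:64728875-64729124, plus strand) had the highest reChIP levels at a coding start apart from Ebf2. Tcf21 (chr10:22820144-22820393, minus strand) and Csf1 (chr3:107760470-107760719, minus strand) fell in both reChIPs in DKO clones. Gapdh (chr6:125165774-125166023, minus strand) and Nfe2l1 (chr11:96829969-96830218, minus strand) carried total H3K4me3 with little H3K27me3, and the non-coding Gm6116 (chr5:74948944-74949193, plus strand) the reverse.
Pou3f2: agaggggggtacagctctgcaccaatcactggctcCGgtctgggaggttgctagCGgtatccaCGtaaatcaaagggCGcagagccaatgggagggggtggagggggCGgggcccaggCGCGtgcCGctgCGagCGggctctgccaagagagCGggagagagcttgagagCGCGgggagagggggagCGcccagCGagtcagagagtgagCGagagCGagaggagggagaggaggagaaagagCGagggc
Atoh1: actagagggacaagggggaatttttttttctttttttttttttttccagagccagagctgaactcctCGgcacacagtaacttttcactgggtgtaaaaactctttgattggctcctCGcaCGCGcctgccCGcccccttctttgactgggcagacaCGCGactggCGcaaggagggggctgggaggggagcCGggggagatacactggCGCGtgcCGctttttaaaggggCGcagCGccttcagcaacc
Tcf21: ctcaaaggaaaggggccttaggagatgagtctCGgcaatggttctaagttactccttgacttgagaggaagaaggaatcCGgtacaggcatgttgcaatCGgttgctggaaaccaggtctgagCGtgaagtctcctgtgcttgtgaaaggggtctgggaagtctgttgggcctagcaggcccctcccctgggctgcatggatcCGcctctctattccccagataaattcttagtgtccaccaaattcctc
Csf1: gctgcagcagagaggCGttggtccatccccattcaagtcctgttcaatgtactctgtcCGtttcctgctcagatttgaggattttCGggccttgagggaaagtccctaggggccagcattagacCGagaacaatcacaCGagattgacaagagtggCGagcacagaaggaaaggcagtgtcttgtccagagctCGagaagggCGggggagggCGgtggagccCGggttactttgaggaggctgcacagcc
Gapdh: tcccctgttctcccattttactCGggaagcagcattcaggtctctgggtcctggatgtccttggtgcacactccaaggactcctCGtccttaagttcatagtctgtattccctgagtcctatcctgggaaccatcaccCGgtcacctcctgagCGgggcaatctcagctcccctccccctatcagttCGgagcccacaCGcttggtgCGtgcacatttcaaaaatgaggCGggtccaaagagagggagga
Nfe2l1: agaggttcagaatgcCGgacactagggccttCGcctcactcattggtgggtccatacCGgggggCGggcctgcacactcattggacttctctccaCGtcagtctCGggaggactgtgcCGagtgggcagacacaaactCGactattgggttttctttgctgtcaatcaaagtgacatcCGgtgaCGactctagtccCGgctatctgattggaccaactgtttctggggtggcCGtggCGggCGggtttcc
Gm6116: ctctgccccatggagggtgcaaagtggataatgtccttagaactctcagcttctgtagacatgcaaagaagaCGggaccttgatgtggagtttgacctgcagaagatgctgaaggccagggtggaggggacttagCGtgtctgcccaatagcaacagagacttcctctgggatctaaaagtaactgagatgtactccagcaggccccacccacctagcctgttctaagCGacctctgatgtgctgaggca
The CG dinucleotide reads the same on both strands, and it was counted once for each occurrence. The stretch of Pou3f2 held 18, Atoh1 14, Nfe2l1 14, Csf1 10, Gapdh 8, Tcf21 5 and Gm6116 3. Of 16853 coding genes with such a stretch, 93.1% held at least 1 CG, and 29.4% held as many as Pou3f2 and 67.4% as many as Tcf21. The median was 15 for 1138 coding genes at wide regions, 16 for 10722 at all shared regions and 10 for all coding genes, and the quartiles of the first pair were 9 and 23 and 9 and 22. The 1138 are those of 1566 coding genes at wide regions that could be matched to the sequence table.

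A RefSeq start site lay in or within 1500 bp of 1209 wide regions (84.4%), against 57.7% of the shared regions under 10 kb. 1 coding gene started in 882 wide regions, 2 in 209, 3 or more in 75 and none in 267. The GC content had a median of 52.8% in wide regions and 49.9% in narrower ones, and the number of CG per 100 bp was 2.35 and 2.38. Wide regions differed more in how CpG-dense sequence was laid out: 811 (56.6%) held at least 2 separate CpG-dense stretches (500 bp windows with a GC fraction of at least 0.5 and an observed to expected CG ratio of at least 0.6), against 4.48% of narrower regions, and 103 (7.19%) held none, against 36.1%. Such stretches made up a median of 16.5% of the width of wide regions and 21.4% of narrower ones. Width itself gives a region more room for start sites and CpG-dense stretches. Chromosome 11 held the most wide regions, 199 or 12.9% of its shared regions, and chromosome X held 7 or 1.10%.

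The widest regions covered homeobox gene clusters, which encode the transcription factors that pattern the body axis. All 38 Hox genes counted had their start site in one of 8 wide regions. The Hoxc cluster from Hoxc13 to Hoxc4 lay in the widest (chr15:102915601-103043700, 128100 bp, 9 coding genes), followed by Hoxb9 to Hoxb2 (chr11:96247801-96360900, 113100 bp, 8 coding genes), and a further one held Evx2 with Hoxd13 to Hoxd3 (chr2:74653651-74717100, 63450 bp, 8 coding genes). At 50850 bp each, further regions held Cbx2 with Cbx8, which encode subunits of Polycomb repressive complex 1 (chr11:119016751-119067600), and Lmx1b, a LIM homeobox gene of limb and brain development (chr2:33600151-33651000). The next were Hoxd4 with Hoxd1 (chr2:74717401-74766450, 49050 bp), Cbarp to Fam174c (chr10:80126851-80173950, 47100 bp, 5 coding genes), Hoxb13 (chr11:96163501-96209250, 45750 bp), Rps15 to Reep6 (chr10:80292151-80337750, 45600 bp, 5 coding genes), Hand2, a heart and limb factor (chr8:57311101-57356550, 45450 bp), and Tle5, Tle2 and Tle6, which encode Groucho-type co-repressors and relatives (chr10:81558451-81603000, 44550 bp). The 3 on chromosome 10 were gene-dense stretches, and each of the others held homeobox, Hand2 or Polycomb genes.

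In the widest Hox region, Hoxc13 to Hoxc4, total H3K4me3 was 0.11 and 0.12 in E14 replicates 1 and 2, total H3K27me3 was 0.66 and 0.75, K4-K27 was 2.32 and 2.27, K27-K4 was 1.97 and 3.10, and IgG–IgG was -0.45. The other Hox segments had much the same levels. Over the Hox regions from Hoxb9 to Hoxb2 and Evx2 to Hoxd3, K4-K27 replicate 1 was 2.57 and 2.47, and the IgG–IgG value was -0.27 and -0.44. The Cbx2 and Cbx8 region had more total H3K4me3 (0.59 and 0.50) at a like total H3K27me3 (0.70 and 0.68). Hand2 had less total H3K4me3 (-0.39 and -0.34), with K4-K27 at 2.02 and 1.84 against an IgG–IgG value of -1.14.

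A pair of gene-dense regions on chromosome 10 had lower total H3K27me3 than the Hox regions in the same libraries. From Cbarp to Fam174c, a stretch that holds Atp5d of the mitochondrial ATP synthase and the cold-inducible RNA-binding gene Cirbp, total H3K4me3 was 0.90 and 1.03, total H3K27me3 was -1.31 and -1.64, and K4-K27 was -0.83 and 0.58 against IgG–IgG at 0.32. K4-K27 replicate 1 was thus below IgG–IgG over one of the widest regions of the E14 list, and the mean over the control was 0.22 with both replicates and -0.48 with replicate 1 alone. Rps15 to Reep6, with the ribosomal protein gene Rps15, was in between, with total H3K27me3 at -0.16 and -0.23 and K4-K27 at 1.63 and 1.93.

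**Figure D1:**
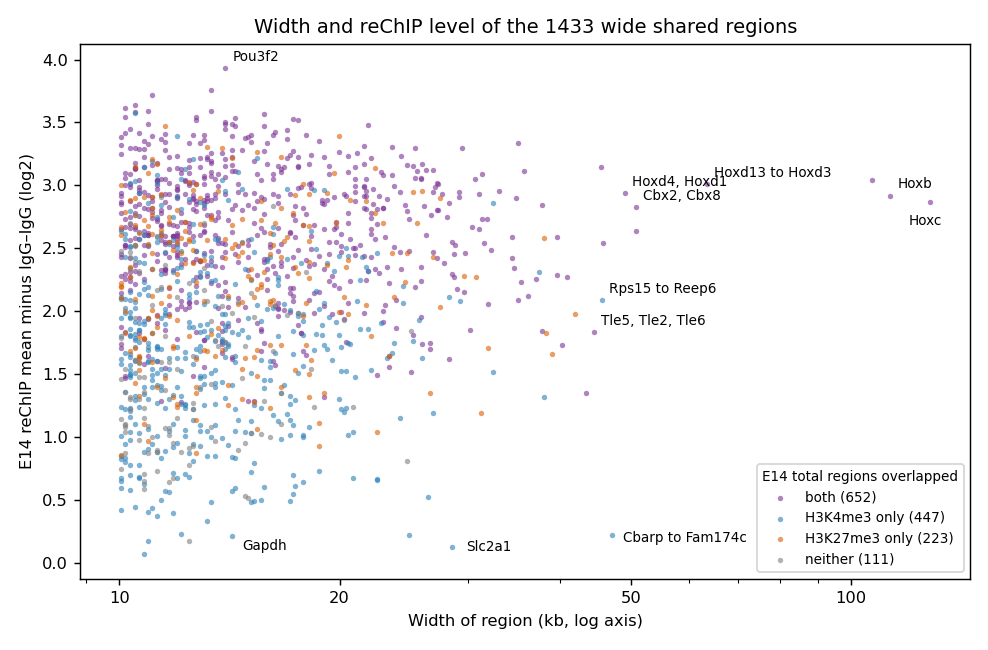
Width of each of the 1433 wide regions (kb, log axis) against the mean of the 4 E14 reChIP libraries minus the IgG–IgG library of replicate 1 (log2), with a point for each region coloured by the E14 total regions that it overlaps. The Hox regions lie near 3 at the far right, and regions that overlap H3K4me3 alone, such as Cbarp to Fam174c and Gapdh, both at 0.22, reach down to almost 0 (below 0 at both with replicate 1 alone).

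The wide regions were divided by whether they overlapped by at least 1 bp a region of the E14 total H3K4me3 or total H3K27me3 tables. Both were present at 652 (45.5%, against 12.7% of all shared regions), H3K4me3 alone at 447 (31.2%, against 51.9%), H3K27me3 alone at 223 (15.6%, against 11.1%) and neither at 111 (7.75%, against 24.3%). The share with an H3K27me3 region rose with width, from 54.1% of the 868 regions of 10 to 15 kb to 65.4% of 315 at 15 to 20 kb, 77.3% of 198 at 20 to 30 kb and 88.5% of the 52 of at least 30 kb. The share with an H3K4me3 region went from 74.4% to 86.5% over the same classes. A wider region has more room for an overlap, and the median share of the width that H3K27me3 regions covered went from 14.3% in the narrowest class to 46.6% in the widest, while that of H3K4me3 regions was 16.8% in the widest class and higher in the others.

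E14 H3K4me3 regions covered a median of 22.7% of the width of a wide region and E14 H3K27me3 regions 21.7%. The choice by width bears on this, since only 93 and 54 regions of these tables reach 10 kb. H3K4me3 regions covered at least 50% of the width at 18.2% of wide regions, against 45.0% of all shared regions, and H3K27me3 regions at 26.2% against 10.3%. In WT clones the medians were 27.3% and 40.2%, and in DKO clones 25.6% and 45.6%. ReChIP regions called in the clones covered more, 35.8% for K4-K27 and 59.7% for K27-K4 in WT and 39.1% and 65.4% in DKO. A region of the clones overlapped nearly every wide region: K4-K27 in WT at 95.9% and in DKO at 92.3%, and K27-K4 at 93.2% and 88.4%, against 69.7%, 63.8%, 51.5% and 44.4% of all shared regions. Of the wide regions with a WT K4-K27 region 73 (5.31%) had none in DKO, and of those with a WT K27-K4 region 100 (7.49%), against 14.8% and 25.8% over all shared regions.

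**Figure D2:**
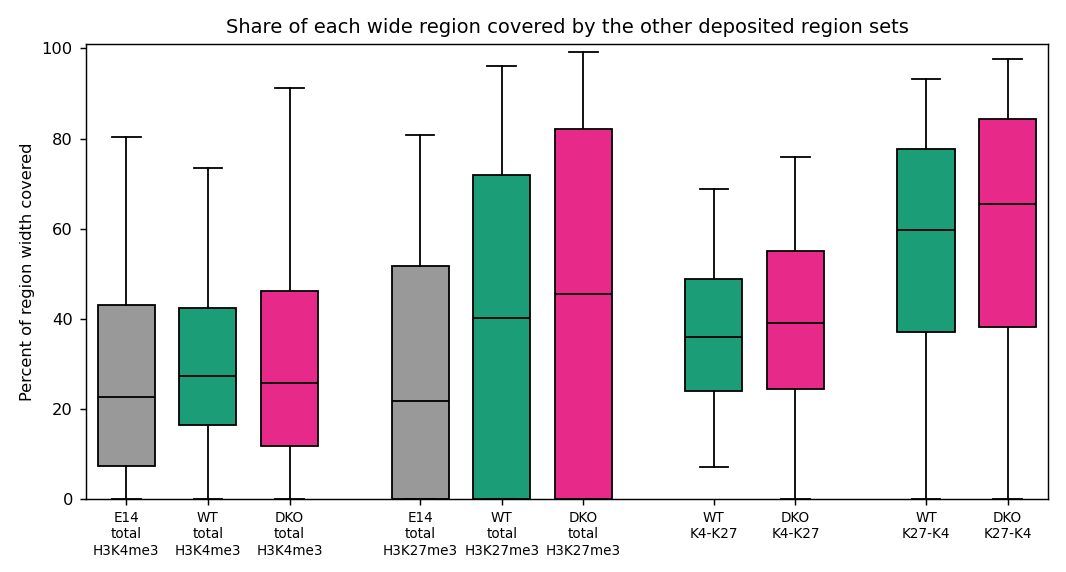
Percent of the width of each wide region that is covered by regions of the other deposited tables, as a box (median and quartiles) with whiskers from the 5th to the 95th percentile over 1433 regions. K27-K4 regions of WT and DKO clones cover the most, with medians of 59.7% and 65.4%.

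Levels over IgG–IgG could be read in the lines that had the control. In E14 replicate 1, K4-K27 was above IgG–IgG at 1334 wide regions (93.1%) and K27-K4 at all of them, against 79.9% and 98.8% of all shared regions. In WT clone 57 the counts were 1392 (97.1%) and 1365 (95.3%), against 87.9% and 77.9%. All 4 reChIP libraries exceeded the control of their line at 1285 wide regions (89.7%), at 646 of the 652 that overlapped both totals (99.1%) and at 347 of the 447 that overlapped H3K4me3 alone (77.6%). This joint count was not made over all shared regions. As the E14 reChIP signal also set the regions, it describes them and is no test.

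The orientation in which regions were at or below IgG–IgG differed by class and line. At those with H3K4me3 alone, 90 of 447 were at or below IgG–IgG in K4-K27 of E14 replicate 1 and none in K27-K4, while in WT clone 57 the counts were 3 for K4-K27 and 59 for K27-K4. At those with H3K27me3 alone none was at or below the control in E14, and 15 were in K4-K27 of clone 57 with 1 in K27-K4. Of the 111 with neither mark, 8 in E14 and 19 in clone 57 were in K4-K27, and none and 5 in K27-K4. Over all 21857 shared regions 4385 in K4-K27 and 266 in K27-K4 were at or below the control in E14, and 2645 and 4830 in clone 57, so that the class with H3K4me3 alone had the order of all shared regions, at a like share in K4-K27 of E14. These are single libraries of 2 lines and batches, and the difference between the lines was not tested.

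The 3 highest mean reChIP levels over IgG–IgG were at Pou3f2, Ebf2 and Atoh1. Pou3f2, a POU factor of neural progenitors (chr4:22485601-22499550, 13950 bp), had K4-K27 at 2.57 and 2.94, K27-K4 at 2.66 and 4.13, and IgG–IgG at -0.86, a mean difference of 3.93. Ebf2, a factor of adipose and neural cells (chr14:67227751-67241100), was 3.76 above the control and the proneural gene Atoh1 (chr6:64726801-64737900) 3.72. Ebf2 lies in the segment of chromosome 14 that was low in all clones, and there WT total H3K27me3 was 1.03 and 0.32 with IgG–IgG at -0.60. Gata6, an endoderm factor (chr18:11045251-11058000), was 3.54 above the control in E14, with WT total H3K27me3 at 2.02 and 1.28.

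The lowest mean levels over IgG–IgG at a start site were at Slc2a1 and Src. Slc2a1, the glucose transporter GLUT1 (chr4:119104951-119133450, 28500 bp), had K4-K27 at -1.69 and -0.18, K27-K4 at 0.74 and 1.64, and IgG–IgG at 0.00, a mean difference of 0.12. Src (chr2:157416151-157427100) was 0.17 and Gapdh, the glycolytic enzyme that is used as a non-bivalent control (chr6:125158351-125172600, 14250 bp), 0.22 above the control. These means set the libraries of both replicates against the control of replicate 1, although K27-K4 of replicate 2 was the higher. With replicate 1 alone the values were below the control, at -0.48 for Slc2a1, -0.63 for Src and -0.41 for Gapdh, and 3.47 for Pou3f2. Over all wide regions the median was 2.31 with both replicates and 1.91 with replicate 1 alone, by which 35 regions were at or below the control and none with both. Gapdh had total H3K4me3 at 0.93 and 1.34 and total H3K27me3 at -1.41 and -1.79. In WT clones its K4-K27 was 1.71 and 1.37 and its K27-K4 -1.13 and -0.69, against IgG–IgG of 0.66 in clone 57. K4-K27 was thus above and K27-K4 below the control at Gapdh in the WT clone, and the reverse in E14 replicate 1, where K4-K27 was -1.42, K27-K4 0.87 and IgG–IgG 0.13.

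The balance of the totals was described by total H3K27me3 minus total H3K4me3. In E14 the median over wide regions was 0.04, against -0.73 over all shared regions, and in WT clones 0.19 against -0.96. The WT median over wide regions was -0.07 without total H3K27me3 of clone 57, -0.19 without total H3K4me3 of clone 58, 0.57 without total H3K4me3 of clone 57 and 0.46 without total H3K27me3 of clone 58. By limma over all 21857 shared regions (called at a log2 difference over 1 and an adjusted p under 0.05), total H3K27me3 was the higher at 41 wide regions in E14 (2.86%, against 4.52% of all shared regions) and total H3K4me3 at 292 (20.4%, against 44.3%). In WT clones the counts were 22 (1.54%, against 2.95%) and 183 (12.8%, against 41.2%). With the clone as a replicate block they were 103 (7.19%, against 3.93%) and 260 (18.1%, against 44.8%). Centring each library on its median over all shared regions turned the split, to 656 with higher H3K27me3 and 127 with higher H3K4me3 in E14 (45.8% and 8.86%, against 5897 and 6979 of the 21857 shared regions) and to 925 and 109 in WT clones (64.5% and 7.61%, against 35.7% and 33.8% of all shared regions), and it moved the median over all shared regions to 0.13 and 0.32. Each library of the WT totals except total H3K4me3 of clone 57 moved the summed count of 205 by over 1.5 times when left out, to 5 without total H3K27me3 of clone 57, 396 without total H3K4me3 of clone 58 and 42 without total H3K27me3 of clone 58 (0.349%, 27.6% and 2.93%, against 9.19%, 57.3% and 20.9% of all shared regions).

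The 5 regions furthest towards H3K4me3 all held a coding start site. Usp48, a deubiquitinase (chr4:137593501-137603850), had total H3K4me3 at 0.92 and 1.69 and total H3K27me3 at -2.74 and -2.51, a difference of -3.93 ± 0.44 (SE, limma adjusted p = 5.59e-06). Ldb1, a partner of LIM homeodomain proteins, differed by -3.61 ± 0.34 (limma adjusted p = 2.22e-06) and Nfe2l1, a stress-response factor (chr11:96820651-96832050), by -3.48 ± 0.34 (limma adjusted p = 2.35e-06). Usp28 and Ppp4c with the glycolytic gene Aldoa, at -3.41 each, completed the lowest 5. The highest was a region without a start site (chr11:112951801-112970100, 18300 bp) with total H3K4me3 at -0.51 and -1.13 and total H3K27me3 at 0.84 and 0.88, a difference of 1.68. Of the 5 highest only Gm6116 (chr5:74947201-74959200, 12000 bp, no CpG-dense stretch) had a start site. Its difference was 1.46 ± 0.27 (limma adjusted p = 0.000352), and its K27-K4 values were 0.62 and 1.09 in E14 and 1.26 and 1.09 in WT clones.

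**Figure D3:**
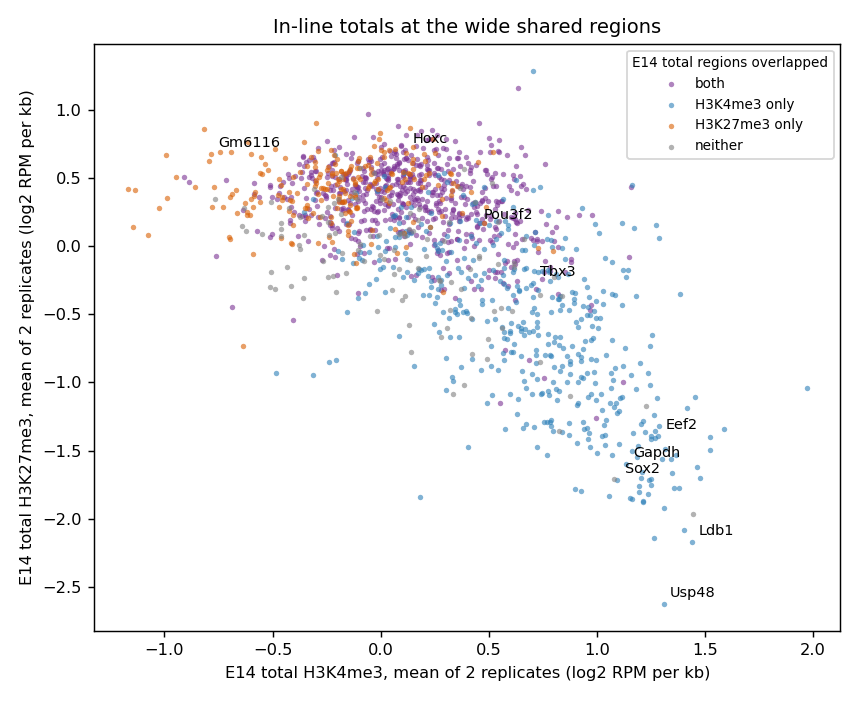
Mean of E14 replicates 1 and 2 for total H3K4me3 (x axis) and total H3K27me3 (y axis), both in log2 RPM per kb, with a point for each of the 1433 wide regions coloured by the E14 total regions that it overlaps. Regions with both or with H3K27me3 alone gather mostly at total H3K27me3 above 0, and a tail of H3K4me3-only regions reaches Usp48 at the lower right.

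Gene lists that were chosen with earlier results in view differed in how many members had a start site at a wide region, and the share is given of all genes of the list with a RefSeq start. Of all 21000 coding genes, 1566 (7.46%) lay at wide regions. Homeobox families came first, with 38 of 38 Hox, 9 of 9 Dlx and Tlx, 6 of 6 Irx, 16 of 19 LIM homeobox and Pou, 7 of 9 Pax, 10 of 14 Nkx and 55 of 72 other homeobox genes. Other developmental regulators were 4 of 6 Gata, 12 of 19 Sox, 10 of 17 T-box, 29 of 55 basic helix-loop-helix and 20 of 44 Forkhead genes, and 36 of 63 genes in a list of zinc finger and other developmental factors (Zic, Egr, Tfap2, Ebf and Runx genes among them). Among signalling genes, 20 of 37 Wnt, Frizzled and Sfrp genes, 8 of 16 Hedgehog and Notch pathway genes, 8 of 26 fibroblast growth factor genes and 9 of 36 BMP, GDF and Nodal genes lay at wide regions. Axon guidance genes gave 22 of 55, ion channels and neurotransmitter receptors 17 of 88, Polycomb and DNA methylation genes 8 of 38, imprinted genes 6 of 31 and cyclin-dependent kinase inhibitors 2 of 7. Pluripotency genes gave 4 of 30, ribosomal protein genes 9 of 77 and housekeeping genes 5 of 38 (13.3%, 11.7% and 13.2%), which are also above the share of all coding genes.

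The balance of the totals also varied between lists, which was not tested. Over the wide regions of a list its median was 0.70 for Hox, 0.44 for Pax, 0.42 for T-box and LIM homeobox with Pou, 0.34 for Forkhead and 0.20 for Sox genes. It was 0.09 for both BMP and fibroblast growth factor genes, -0.09 for Hedgehog and Notch, -0.19 for Polycomb, -0.24 for ion channel and -0.28 for axon guidance genes. It was -1.91 for pluripotency, -2.23 for ribosomal protein and -3.08 for housekeeping genes. The medians over IgG–IgG ran from 3.15 for LIM homeobox and Pou genes to 0.65 for housekeeping genes (2.81 and -0.03 with E14 replicate 1 alone). Among the pluripotency genes, Sox2 (chr3:34648051-34659300) had total H3K27me3 of -1.69 and -1.74 and Trim71 (chr9:114542851-114565350) of -1.81 and -1.89. Of the lineage markers, 4 of 4 endoderm, 2 of 3 mesoderm, 3 of 3 neural and 3 of 4 trophoblast genes lay at wide regions, as did 1 of 8 pluripotency markers (Sox2) and 1 of 4 fibroblast markers.

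The widest of the regions away from any start site were on chromosome 2 next to Lmx1b (chr2:33558451-33596700, 38250 bp), on chromosome 7 (chr7:73386901-73421250, 34350 bp) and on chromosome 4 (chr4:130073251-130104450, 31200 bp). The first had total H3K4me3 at -0.12 and -0.86 and total H3K27me3 at 0.64 and 0.78. Its mean reChIP level over IgG–IgG was 1.83, and those of the others were 2.42 and 1.19. None of the 3 was called in a comparison of DKO with WT reChIPs, where the differences lay between -0.08 and 0.46.

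The reChIPs of WT clones were next set against the total made with the same first antibody. K4-K27 exceeded total H3K4me3 by a median of 1.01 over wide regions and 0.12 over all shared regions, and 1234 of the wide regions (86.1%) were above 0. None passed the test by limma in either direction (0.0229% of all shared regions were higher and 0.0366% lower), although 440 had an unadjusted p under 0.05 (30.7%, against 9.22% of all shared regions). Centring each library gave 450 calls (439 higher and 11 lower, or 30.6% and 0.768%, against 7.61% and 6.06% of all shared regions) and moved the medians to 0.58 over wide and -0.31 over all shared regions. With the clone as a replicate block 651 wide regions (45.4%, against 12.5%) were called. K27-K4 exceeded total H3K27me3 by a median of 1.17 (1.10 over all shared regions) and was called at 662 wide regions (46.2%, against 48.5%), or at 929 (64.8%, against 51.1%) with the block. This count was 103, 93 and 44 (7.19%, 6.49% and 3.07%, against 24.9%, 26.2% and 22.5% of all shared regions) without total H3K27me3 of clone 57, K27-K4 of clone 57 and total H3K27me3 of clone 58, and it was 91 (6.35%, against 16.9%) after centring, so that the near equal shares of the full fit rest on these libraries and on the scaling. The shift of the first comparison between wide and all regions was thus larger than that of the second.

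Between orientations in WT clones the median of K27-K4 minus K4-K27 was 0.20 over wide regions and -0.23 over all shared regions. By limma, K27-K4 was the higher at 1 wide region (0.0698%, against 1.32% of all shared regions) and the lower at 81 (5.65%, against 29.7%). The 82 calls became 36 without K27-K4 of clone 57, 127 without K4-K27 of clone 58 and 41 without K27-K4 of clone 58 (2.51%, 8.86% and 2.86%, against 22.2%, 38.4% and 20.5% of all shared regions). The median was -0.12, 0.01 and 0.52 in turn. After centring, 940 were higher and 36 lower (65.6% and 2.51%, against 33.8% and 21.1% of all shared regions), and this scaling moved the median over all shared regions from -0.23 to 0.76. The order of the orientations therefore depended on the scaling between libraries.

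DKO clones were compared with WT clones to ask which wide regions depend on DPPA2 and DPPA4. In K4-K27, 39 of 1433 wide regions were lower in DKO clones (2.72%, against 4.35% of all shared regions) and none was higher (0.503%), by limma over all shared regions. In K27-K4, 71 were lower (4.95%, against 8.29%) and none higher (1.05%). In total H3K4me3, 3 were lower (0.209%, against 5.55%) and none higher (0.0412%), and in total H3K27me3 20 were lower (1.40%, against 2.33%) and none higher (0.494%). Unadjusted p-values were under 0.05 for 90, 162, 27 and 76 wide regions (6.28%, 11.3%, 1.88% and 5.30%) and for 2722, 4146, 2670 and 2495 of the 21857 shared regions (11.4% or more). Each of these shares of the wide regions lay below that of all shared regions. The order of the lower calls turned without WT clone 58, to 16.3% against 12.7% in K27-K4 and 3.77% against 3.40% in total H3K27me3. Clones are the replicates here, 2 a genotype, and p-values measure the spread between these clones.

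The medians over the wide regions were -0.25 in K4-K27 and -0.27 in K27-K4, against -0.12 and -0.09 over all shared regions, and 73.2% and 73.1% of wide regions were below 0. For total H3K4me3 and total H3K27me3 they were -0.09 and 0.01, against -0.06 and 0.02. The shift in K4-K27 was smaller than the median difference between WT clones (0.32) and between DKO clones (0.52), and that in K27-K4 was smaller than between WT clones (0.60) and larger than between DKO clones (0.17). Single clones moved these medians. In K4-K27 it was -0.10 without WT clone 57, -0.42 without WT clone 58, -0.52 without DKO clone 43 and 0.01 without DKO clone 53. In K27-K4 it was 0.01 without WT clone 57 and -0.59 without WT clone 58. In total H3K27me3 it was 0.28 without WT clone 57, -0.25 without WT clone 58 and 0.02 without either DKO clone. Centring gave -0.14 in K4-K27 and -0.13 in K27-K4, against -0.01 and 0.06 over all shared regions.

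The counts of falls moved with single clones. In K4-K27 they were 8 without WT clone 57, 16 without WT clone 58, 10 without DKO clone 43 and 12 without DKO clone 53, so that the full count rests on all 4 libraries. Over all shared regions 1.02%, 2.57%, 2.58% and 3.14% were lower in these settings. In K27-K4 they were 60 (55 lower and 5 higher), 234, 7 and 16, with 5.20%, 12.7%, 3.10% and 3.94% of all shared regions lower. In total H3K4me3 they were 4 (2 lower and 2 higher), 77, 0 and 0, with 2.67%, 16.1%, 0.705% and 1.11% of all lower, and in total H3K27me3 12 (11 lower and 1 higher), 55 (54 lower and 1 higher), 0 and 7, with 0.910%, 3.40%, 0.165% and 1.38%. An estimate of spread without trend or robust fitting gave 17, 44, 1 and 2 (1.19%, 3.07%, 0.0698% and 0.140%, against 5.91%, 6.34%, 3.03% and 0.714% of all shared regions lower). Centring left the reChIP counts near those of all 4 libraries, at 40 and 72 (68 lower and 4 higher). The shares lower were then 2.79% against 2.96% of all shared regions in K4-K27, a smaller gap than without centring, and 4.75% against 7.23% in K27-K4.

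All 39 regions that fell in K4-K27 were among the 71 that fell in K27-K4, as were the 20 that fell in total H3K27me3 and the 3 that fell in total H3K4me3. The same overlaps were not counted over all shared regions. Of the 71, 56 held a start site, as did 84.4% of all wide and 59.4% of all shared regions. Their widths ran from 10050 to 49050 bp with a median of 12900 bp. By E14 total regions they divided into 32 of 652 with both marks, 15 of 447 with H3K4me3 alone, 19 of 223 with H3K27me3 alone and 5 of 111 with neither. Over all shared regions these counts were 321 of 2774, 418 of 11334, 332 of 2436 and 742 of 5313. Of the 52 regions of at least 30 kb none fell in K4-K27 and 2 did in K27-K4, which is near the 2.72% and 4.95% of all wide regions. Of the totals' classes, wide regions with H3K4me3 alone had median differences of -0.06 in K4-K27 and -0.02 in K27-K4, those with both -0.33 and -0.37, those with H3K27me3 alone -0.42 and -0.47, and those with neither -0.26 and -0.19. Over all shared regions the medians of these classes were -0.01 and 0.08, -0.36 and -0.32, -0.29 and -0.31, and -0.38 and -0.30. Between the clones of a genotype the medians over all wide regions differed by 0.32 (WT) and 0.52 (DKO) in K4-K27 and by 0.60 (WT) and 0.17 (DKO) in K27-K4.

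**Figure D4:**
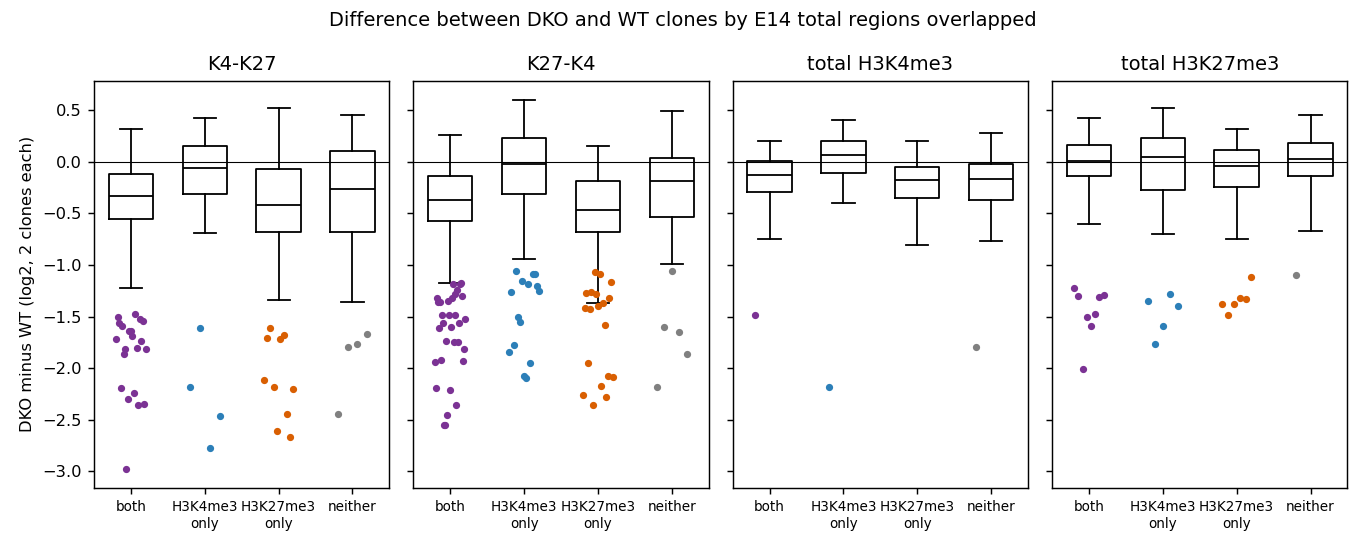
DKO minus WT (log2, mean of 2 clones each) for each ChIP, as a box (median and quartiles) with whiskers from the 5th to the 95th percentile over the wide regions of each class of E14 total regions overlapped, and a point for each region called by limma. The called points all lie below -1, with 39 in K4-K27, 71 in K27-K4, 3 in total H3K4me3 and 20 in total H3K27me3.

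Zfp853, a zinc finger gene (chr5:143284651-143296200, 11550 bp), was the only wide region that fell in all 4 ChIPs. Its K4-K27 values were 2.24 and 2.27 in WT clones and -0.88 and -0.57 in DKO clones, a difference of -2.98 ± 0.49 (SE, n = 2 clones each, limma adjusted p = 3.65e-07). K27-K4 went from 2.86 and 2.09 to -0.27 and 0.12 (difference -2.55), total H3K27me3 from 1.57 and 1.09 to -0.95 and -0.39 (-2.01) and total H3K4me3 from 0.78 and 0.36 to -0.96 and -0.85 (-1.48, limma adjusted p = 0.0295). The genotypes did not overlap in any of the 4, and both DKO clones were under the IgG–IgG value of 0.10 in all but 1 library. How many regions lacked such an overlap was not counted, here or where it is mentioned below. WT regions of the 4 tables covered between 27.3% and 76.6% of its width and DKO regions none. The call in total H3K4me3 was lost without either DKO clone and without trended and robust fitting (limma adjusted p = 0.204), and those in K27-K4 and total H3K27me3 without clone 43.

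On chromosome 6 a pair of neighbouring wide regions fell together. At Repin1 and Zfp775, both zinc finger genes (chr6:48592951-48603750, 10800 bp), K4-K27 went from 2.28 and 1.84 in WT clones to -0.28 and -1.15 in DKO clones, by -2.77 ± 0.50 (limma adjusted p = 3.66e-06). Total H3K4me3 there went from 1.99 and 0.85 to -0.73 and -0.79, the largest called fall of that mark at a wide region (-2.18 ± 0.51, limma adjusted p = 0.00107), which did not pass without either DKO clone. At AI854703 (chr6:48617401-48634050, 16650 bp), K27-K4 went from 2.22 and 1.73 to -0.64 and -0.51, by -2.55 ± 0.34 (limma adjusted p = 6.64e-12). Total H3K27me3 fell there by 1.50, from 1.15 and 0.51 to -0.89 and -0.44, a call that was lost without DKO clone 43 (limma adjusted p = 0.798) or 53 (0.0546) and without trended and robust fitting (0.0768).

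Tcf21, a factor of mesenchymal and heart progenitors (chr10:22808851-22823550, 14700 bp), had K4-K27 at 0.80 and 0.70 in WT clones and at -1.99 and -1.72 in DKO clones, and K27-K4 at 1.35 and 0.88 and at -1.04 and -1.07. The differences were -2.61 ± 0.78 (limma adjusted p = 0.0231) and -2.17 ± 0.39 (1.89e-06). The K4-K27 call was lost after centring (adjusted p = 0.106) and without WT clone 57, WT clone 58 or DKO clone 43, with adjusted p from 0.0618 to 0.507. Gfi1, a repressor of blood cell development (chr5:107716201-107729400, 13200 bp), had K27-K4 at 3.49 and 2.83 in WT and 0.93 and 0.67 in DKO clones (-2.36 ± 0.45, limma adjusted p = 8.66e-06). Its DKO values were above the IgG–IgG value of WT clone 57 there (-0.34), and at Tcf21, where that value was -1.27, the DKO clones were below it in K4-K27 and above it in K27-K4. The Gfi1 call was lost without either DKO clone.

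Further regions with large falls held Zfp784, Nkpd1 and Dmrtb1. At Zfp784 (chr7:5026651-5039550) K27-K4 was 2.54 and 1.92 in WT and -0.42 and -0.03 in DKO clones (-2.46 ± 0.35). At Nkpd1 (chr7:19512901-19526250) K4-K27 was 2.02 and 1.95 and then -0.78 and -0.17 (-2.46 ± 0.49). The genotypes did not overlap in either, and both calls were lost without DKO clone 43 (limma adjusted p = 0.0571 and 0.0551). Dmrtb1 (chr4:107678251-107688750), which overlapped neither E14 total region, fell in K4-K27 by 2.44 and in total H3K4me3 by 1.80, the latter from 1.17 and 0.10 to -1.30 and -1.02. The call in total H3K4me3 was lost without WT clone 57, without either DKO clone (limma adjusted p from 0.0737 to 1.00) and without trended and robust fitting (0.0621). A region without a start site on chromosome 17 (chr17:26428351-26443350, 15000 bp) fell in K4-K27 by 2.67.

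Each gene list gave at most 2 regions that fell in K27-K4, where 4.95% of wide and 8.29% of all shared regions fell. These were 1 of 8 Hox regions, 2 of 10 T-box regions (Tbx3 and Tbx4), 1 of 7 Pax regions (Pax1, -1.27), 1 of 6 Irx regions (Irx6, -1.60) and 1 of 16 LIM homeobox and Pou regions (Lhx3, -1.42). They were also 2 of 29 basic helix-loop-helix regions (Tcf21, and Olig3 at -1.74; Bhlha9, which also fell, by 1.58, is a gene of this kind that the list lacks), 1 of 36 regions of the list of zinc finger and other developmental factors (Tfap2e, -1.93, an AP-2 factor), 2 of 54 other homeobox regions (Pdx1, -1.28, and Lbx2, -1.39), 1 of 22 axon guidance regions (Slit1, -2.08), 2 of 6 imprinted regions (Gnas, -1.77, and Grb10, -1.28) and 1 of 4 pluripotency regions (Tbx3, also a T-box gene). None was called of 19 Forkhead, 12 Sox, 4 Gata, 10 Nkx, 20 Wnt, Frizzled and Sfrp and 8 Hedgehog and Notch regions. Shares over so few regions set no list apart from all wide regions, and the differences between them were not tested. The fall at Oxtr (-1.74), the oxytocin receptor, and at Csf1, the macrophage growth factor (-1.61 in K27-K4 and -2.19 in K4-K27), were outside these lists.

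Of the loci that the study examined by qPCR, Klf4 and the 9 named here were looked up, and all but Klf4 lay at wide regions. Its other qPCR loci were not looked up. The study treats Gm6116 and Meis2 as H3K27me3-only, Gapdh and Klf4 as H3K4me3-only, and the others named here as bivalent. Csf1 (chr3:107755351-107765400, 10050 bp) had K4-K27 at 1.66 and 1.40 in WT and -0.42 and -0.90 in DKO clones. Lmo1 (chr7:109164001-109180200) had K4-K27 at 2.32 and 1.94 and at 0.77 and 0.52, a difference of -1.49 ± 0.50 that did not pass (limma adjusted p = 0.0546). The groups did not overlap at either, which describes 2 clones a genotype and is no test. At Pou4f1, Tlx1, Dlx3, Meis2 and Sox6, the K4-K27 differences were -0.38, -0.49, -0.48, 0.08 and -0.20, at Gm6116 0.96 and at Gapdh 0.24, and no limma adjusted p was under 0.473.

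The Hoxd cluster was split over 2 adjacent wide regions, of which limma called 1. Hoxd4 with Hoxd1 had K27-K4 at 2.75 and 2.10 in WT and 1.22 and 0.90 in DKO clones (-1.36 ± 0.43, limma adjusted p = 0.0190), and K4-K27 at 2.03 and 1.99 and at 1.09 and 0.39 (-1.27 ± 0.49, limma adjusted p = 0.145). Evx2 with Hoxd13 to Hoxd3, which adjoins it, had K27-K4 at 3.19 and 2.46 in WT and 2.54 and 2.30 in DKO clones (-0.41 ± 0.53, limma adjusted p = 0.779). The genotypes overlapped in the latter and not in the former. WT total H3K27me3 regions covered 80.4% of the Hoxd4 and Hoxd1 region and DKO regions 13.8%, against 99.3% and 97.2% of its neighbour. The difference between the neighbours was not tested.

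The widest Hoxc and Hoxb regions differed by -0.22 and -0.24 in K4-K27 and by -0.28 and -0.30 in K27-K4. In Hoxc13 to Hoxc4, K27-K4 was 2.75 and 2.11 in WT clones and 2.28 and 2.02 in DKO clones, and DKO clone 43 lay between the WT clones. For Cbx2 with Cbx8 and for Lmx1b, K27-K4 differed by -0.23 and -0.31. None of these passed the test.

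At Tbx3, a T-box factor of pluripotency and of limb and heart development (chr5:119655001-119676900, 21900 bp), the fall was called in total H3K27me3 and K27-K4 only. Total H3K27me3 was 1.20 and 0.48 in WT and -1.09 and -0.75 in DKO clones (-1.76 ± 0.32, limma adjusted p = 1.74e-05), and K27-K4 was 2.05 and 1.42 and then 0.16 and 0.32 (-1.50 ± 0.35, limma adjusted p = 0.000558). K4-K27 was 2.04 and 1.63 in WT and 2.11 and 1.68 in DKO clones (difference 0.06), and total H3K4me3 was 1.92 and 0.92 and then 2.39 and 1.93 (difference 0.74, limma adjusted p = 1.00). The adjacent region at Tbx3os2 (chr5:119679751-119691450) behaved alike, with -1.60 in total H3K27me3, -1.55 in K27-K4 and 0.00 in K4-K27. WT K27-K4 regions covered the whole of the Tbx3 region and DKO ones none, while K4-K27 regions covered 53.4% and 64.4%.

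Gnas, an imprinted locus for a G protein subunit (chr2:174282451-174303000, 20550 bp), fell in K27-K4 (2.72 and 2.00 to 0.52 and 0.65, -1.77 ± 0.40) and total H3K27me3 (0.65 and 0.21 to -1.28 and -0.56, -1.35 ± 0.33), and its K4-K27 difference of -0.72 did not pass. The interaction of genotype with orientation, which tests whether K27-K4 and K4-K27 changed by different amounts, was called at no wide region by limma (2 or 0.140% had an unadjusted p under 0.05, against 3.33% of all shared regions) and at 1 of all shared regions. For Tbx3 it was -1.56 ± 0.64 and for Tbx3os2 -1.55 ± 0.64, with a limma adjusted p of 1.00 for both. The call of total H3K27me3 at Tbx3 was lost without DKO clone 43, and that at Tbx3os2 without DKO clone 43, without WT clone 57 and without trended and robust fitting.

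**Figure D5:**
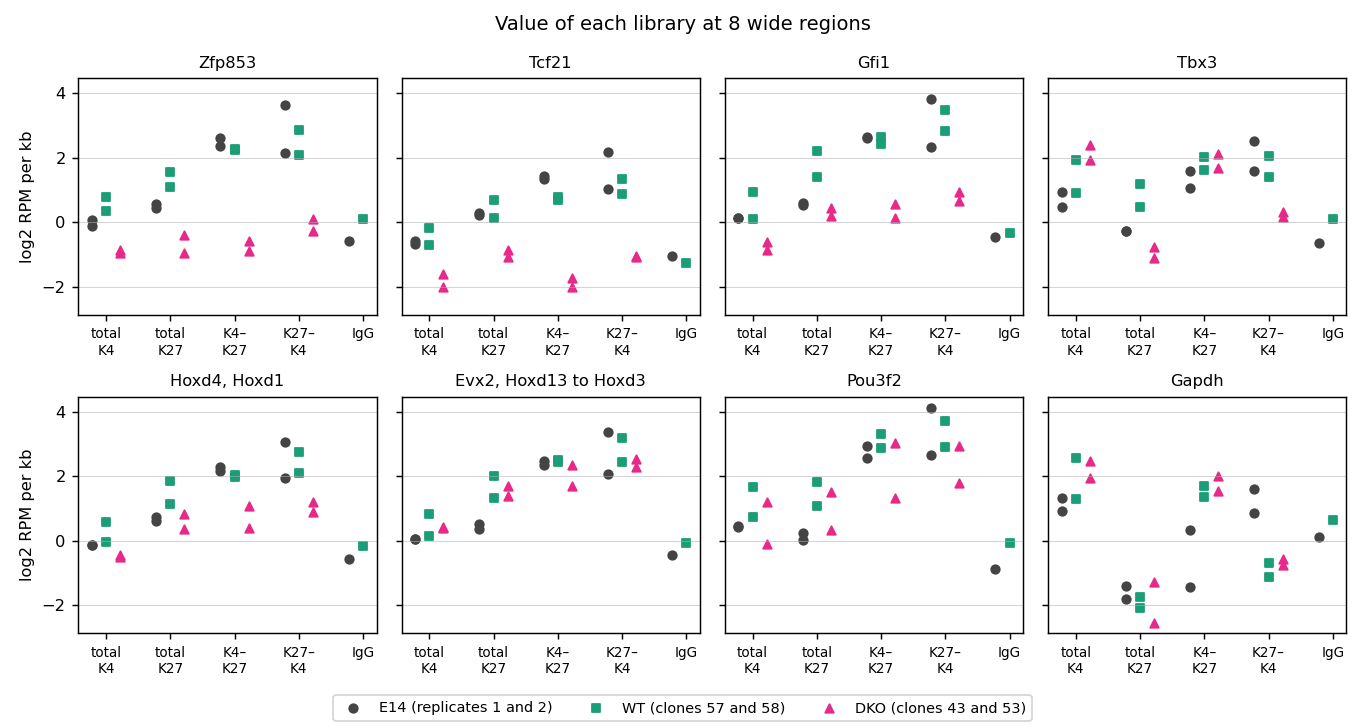
Value of each library (log2 RPM per kb) at 8 wide regions, by ChIP (both totals, both reChIPs and IgG–IgG), with circles for E14 replicates, squares for WT clones and triangles for DKO clones. DKO clones are below WT clones in all 4 ChIPs at Zfp853, Tcf21 and Gfi1, in total H3K27me3 and K27-K4 at Tbx3, and near them from Evx2 to Hoxd3 and at Gapdh.

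Within the wide regions the fall in DKO clones went with the balance of the E14 totals: Spearman's rho between total H3K27me3 minus total H3K4me3 in E14 and DKO minus WT was -0.36 in K4-K27 and -0.44 in K27-K4, over 1433 regions that share libraries and are not replicates (-0.25 and -0.34 over all shared regions). Width was only weakly related to the E14 reChIP level over IgG–IgG (rho 0.11) and to the balance (rho 0.15). E14 replicates 1 and 2 ranked the wide regions alike, with rho of 0.86 in K4-K27 and 0.96 in K27-K4, against 0.54 and 0.87 over all shared regions.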

How the data were processed

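Fixed, MNase-digested chromatin of E14 cells (2 replicates) and of WT and DKO clones (2 each) gave 26 libraries of in-line totals, reChIPs and IgG–IgG controls. According to the submitters' processing notes, the reads were handled with Trim Galore 0.6.6, BWA 0.7.13 and SAMtools 1.9 on mm10. The authors quantified reads with a mapping quality over 20, extended by 200 bp and with duplicates kept, and the deposited values are log2 RPM per kb (RPM being reads scaled to library size), with 0 reads entered as 0.9 and no IgG–IgG subtraction. The study's methods describe EPIC2 calls in each replicate against IgG–IgG, and whether the deposited regions came from that step was not given in the sources used here. Those calls used bins of 100 bp, whereas all 21857 shared widths are multiples of 150 bp, and MACS2 is also among the tools of the processing notes, with no role given. The read numbers behind the values were recovered from the steps between low deposited values, taken as whole within 0.02 of a read. In the E14 tables, 32 columns of no sample in the series were not used.

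Because the files hold log2 values and not counts, limma 3.58.1 (R 4.3.3, trended and robust eBayes) was the test. It was fitted to all 21857 shared regions with Benjamini-Hochberg adjustment, and calls needed a log2 difference over 1 with an adjusted p under 0.05. The fit was tested on simulated data. Each comparison used the groups it names. Start sites came from RefSeq on GRCm38.p6, with a reach of 1500 bp. Alternatives were centring, eBayes without trend or robust fitting, adjusted p alone, leaving out the regions with the lowest means, leaving out each library, a replicate block, other widths, and joined regions. Same-numbered WT and DKO libraries come from the same clone by the labels, and the correlation of their deviations was 0.391 and 0.199 for each reChIP with its total, 0.008 between orientations, -0.206 between the totals of WT clones and -0.123 between those of E14.

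Regions, gene lists and comparisons were chosen with earlier results of these data known. The regions named are the 12 widest, the 5 largest called falls and rises of each genotype comparison, and the 5 highest and lowest by balance of the E14 totals. They are also the 3 highest and lowest over IgG–IgG, up to 4 widest of each gene list and the 3 widest without a start site. The 3 on each side of 10000 bp and those qPCR loci of the study that were looked up complete them. Other called regions were named after their values were seen. A few genes and regions that this rule names are not reported here, and the gene lists leave those genes out.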

Additional observations from a re-analysis of the deposited data

How the results depend on the processing

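Most counts depended on single libraries. Leaving out 1 library at a time (the lone sample of an arm is then assumed to vary like the others) gave 8 to 16 wide regions called between genotypes in K4-K27, 7 to 234 in K27-K4, 0 to 77 in total H3K4me3 and 0 to 55 in total H3K27me3. It gave 0 to 1 for K4-K27 against total H3K4me3, 44 to 602 for K27-K4 against total H3K27me3, 36 to 127 between orientations, and 298 to 394 in E14 and 5 to 396 in WT clones for the balance of the totals. With plain eBayes the genotype counts were 17, 44, 1 and 2. Centring gave 7 for total H3K4me3 between genotypes (0.488%, against 5.5% of all shared regions). It also gave 450 and 91 for the reChIPs against their totals, 976 between orientations, and 783 and 1034 for the balance. Adjusted p alone gave 817 for the E14 balance (57.0%, against 61.9% of all shared regions). The replicate block, which pairs libraries of the same clone, gave 651 for K4-K27 against total H3K4me3 and 363 for the WT balance, 929 for K27-K4 against total H3K27me3, and changed no other count by over 1.5 times. DKO and WT clones share no numbers and were not paired. The width limit set the number of regions, which was 2350 at 8000 bp, 565 at 15000 bp, 879 by the named interval (added after the data were seen) and 1557 after joining. The start site share was 86.3% within 5000 bp and 81.4% for coding start sites alone, the latter also added later. Of the values of named regions under these settings, 201 kept their side of the threshold, 30 lost the call and none changed sign. Part of this tally was fixed in advance, as adjusted p alone can lose no call. That setting, plain eBayes and leaving out the lowest regions also kept each difference as it was, so no sign could change there. Many of the named regions were picked for extreme values. The median genotype difference in total H3K4me3 was 0.30 without WT clone 57 and -0.48 without clone 58. The interaction stayed at 0 wide regions in each setting run. The cause of these shifts was not tested. Each wide region held at least 19 reads in each library.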
